A study of Mus musculus with 2 samples.

Results

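Immediate early (early-response) genes and heat-shock genes are the classical RNA read-outs of an acutely stimulated or stressed cell. Of the 32285 genes counted, 37 were followed by their symbols, 28 early-response and 9 heat-shock genes, and each symbol matched 1 gene. They were measured by droplet single-cell RNA-seq (scRNA-seq) of liver sinusoidal endothelial cells (LSECs), the fenestrated endothelium of the liver, in 2 libraries, each made from the pooled livers of 3 mice. *Maf*LSEC-KO mice, in short knockout, carried *Clec4g-iCre* tg/wt with *Maf* fl/fl, so that the gene of the transcription factor c-Maf was deleted where the *Clec4g* promoter drives Cre, in LSECs. Controls were littermates with *Clec4g-iCre* wt/wt and *Maf* fl/fl or fl/wt, called WT in the sample labels; ages of the pooled mice are not stated for these libraries. Both suspensions were made by collagenase perfusion and a further warm collagenase digestion, a Nycodenz gradient and magnetic enrichment for CD146, an endothelial surface protein. The members were read in LSECs and, apart from them, in the immune cells that passed through the same isolation, to set isolation stress beside cell state.

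Early-response genes are switched on soon after a stimulus without new protein synthesis, by factors that already wait in the cell, such as SRF and CREB. Many encode transcription factors (the FOS and JUN proteins that pair to form AP-1, the EGR and NR4A factors, ATF3), others encode brakes that end the response (phosphatases, the mRNA decay factor Zfp36, Nfkbia, Socs3), and many of their mRNAs are short-lived. Heat-shock genes encode chaperones that hold or refold proteins and are induced by HSF1, which binds heat shock elements in their promoters. Warm enzymatic digestion of tissue is known to induce both groups in many cell types.

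The promoters of the 2 groups differed in their heat shock elements. Of the 9 heat-shock genes 7 had a RefSeq promoter window (build GRCm38.p6, 250 bases before to 50 after the start), and 6 of the 7 (all but *Dnajb1*) held the heat shock element unit GAANNTTC on either strand, compared with 2 of 22 matched early-response genes (*Fosl2* and *Jun*) and 9.04% of all 27025 genes with a window. The cAMP response element TGACGTCA was found in *Dusp1* and *Btg2* (2.03% of all genes), and the CArG box, the site of SRF, in *Egr2* and *Zfp36* (1.81% of all genes). The AP-1 site TGAGTCA and the EGR site GCGTGGGCG (5.95% and 0.707% of all genes) matched in none of the 22 early-response and 7 heat-shock genes with a window. Each motif was searched on both strands, and a match is a run of letters in a short window, not measured binding. Shown are the 250 bases before the start of 3 heat-shock genes, with the unit in capitals, and of 3 early-response genes, with the cAMP response element (*Btg2*, *Dusp1*) or the CArG box (*Zfp36*) in capitals.
Hspa1a, chr17:34972157-34972406, minus strand: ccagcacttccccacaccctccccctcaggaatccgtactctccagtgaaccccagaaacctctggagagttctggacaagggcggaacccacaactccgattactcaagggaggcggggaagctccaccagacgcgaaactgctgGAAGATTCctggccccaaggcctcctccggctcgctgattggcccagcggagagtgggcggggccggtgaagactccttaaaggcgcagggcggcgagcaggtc
Hspb1, chr5:135887669-135887918, plus strand: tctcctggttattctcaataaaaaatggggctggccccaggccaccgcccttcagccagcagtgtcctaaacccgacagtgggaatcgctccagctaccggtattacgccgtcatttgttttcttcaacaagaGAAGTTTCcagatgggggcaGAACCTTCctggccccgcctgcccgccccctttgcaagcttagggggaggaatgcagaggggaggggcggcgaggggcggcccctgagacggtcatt
Hspe1, chr1:55087898-55088147, plus strand: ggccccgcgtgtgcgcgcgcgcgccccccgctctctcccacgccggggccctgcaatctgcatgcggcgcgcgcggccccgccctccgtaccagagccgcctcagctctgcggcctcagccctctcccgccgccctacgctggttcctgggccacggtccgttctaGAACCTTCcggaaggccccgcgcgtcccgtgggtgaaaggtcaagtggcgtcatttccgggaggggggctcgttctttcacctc
Btg2, chr1:134079156-134079405, minus strand: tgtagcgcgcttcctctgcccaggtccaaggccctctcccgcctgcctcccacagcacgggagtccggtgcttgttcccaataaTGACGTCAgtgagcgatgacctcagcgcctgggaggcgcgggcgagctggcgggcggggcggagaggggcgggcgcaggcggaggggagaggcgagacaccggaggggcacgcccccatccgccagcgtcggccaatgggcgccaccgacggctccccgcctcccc
Dusp1, chr17:26508473-26508722, minus strand: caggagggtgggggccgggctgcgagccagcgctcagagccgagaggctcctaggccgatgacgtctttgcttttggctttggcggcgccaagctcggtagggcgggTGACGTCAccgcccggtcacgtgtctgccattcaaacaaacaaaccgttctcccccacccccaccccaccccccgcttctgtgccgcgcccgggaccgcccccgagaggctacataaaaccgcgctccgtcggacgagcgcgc
Zfp36, chr7:28379229-28379478, minus strand: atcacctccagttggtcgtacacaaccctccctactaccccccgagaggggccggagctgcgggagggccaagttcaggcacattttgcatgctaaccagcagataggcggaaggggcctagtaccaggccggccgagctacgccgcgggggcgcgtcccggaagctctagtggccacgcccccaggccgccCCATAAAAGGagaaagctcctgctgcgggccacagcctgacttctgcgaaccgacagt
*Hspb1* holds the unit at 2 positions. The match in *Hspe1* (chr1:55088064-55088071) is also the match of *Hspd1*, since the genes of the mitochondrial chaperonin and its co-chaperonin lie head to head. *Hspa1a* and *Hspa1b*, neighbouring copies on chromosome 17, agree in 247 of these 250 bases. Their transcripts are identical in 85.9% of the bases of the longer one but in 55.7% of the last 300 bases, where 3′ tags lie, and how reads shared by the pair were handled is not given in the sources used here, so that the split between them is uncertain.

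Per library there were 5664 barcodes (47681895 UMIs, each marking 1 captured mRNA molecule) in the control and 7091 (89872764 UMIs) in the knockout. After filters and clustering without the members, 4136 control LSECs with a median of 8393.5 UMIs and 3249 knockout LSECs with a median of 13871 UMIs were left. *Maf* itself stood at 3441 CPM in control and 125 CPM in knockout LSECs, and all 14 endothelial markers were detected in both. The markers of other cells summed to 73.3 and 129 CPM for 11 macrophage genes and 8.20 and 30.7 CPM for 8 neutrophil genes. They summed to 69.6 and 8.44 CPM for 11 T/NK cell genes and 125 and 150 CPM for 9 stellate genes. For 8 hepatocyte genes the sums were 151 and 56.2 CPM and for 5 erythroid genes 1240.5 and 14.4 CPM. Among the control LSECs, 21 barcodes formed a cluster of their own (cluster 9) that goes against the label: it was led by *Gzma* (8549 CPM) and *Nkg7* (2739.5 CPM), with the 11 T/NK cell markers at a summed 15394 CPM and the 14 endothelial markers at 1869 CPM, compared with 20188 CPM over all control LSECs. Without cluster 9, the median log2 ratios of knockout to control LSECs were 1.32 for early-response and 1.22 for heat-shock genes, beside 1.26 and 1.21 with it. Cluster 8 (96 knockout and 13 control LSECs) was led by *Dcn*, *Ccl21a* and *C3*. The stellate markers *Dcn*, *Col3a1* and *Colec11* were among its leading genes, and its cells were kept among the LSECs. Barcodes found in both libraries numbered 10, of which 7 were among the cells kept. Levels are given as CPM of summed UMIs, mitochondrial and ribosomal protein genes left out of the total, with exact 95% intervals that cover counting error only. With 1 library per condition no difference could be tested, and the genotype cannot be told apart from the pool of mice, the preparation or the sequencing depth.

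In LSECs the early-response genes were mostly higher in the knockout. Of the 28 genes 23 reached a mean of 10 CPM, and 14 of these 23 were at least 2-fold higher and 0 at least 2-fold lower, beside 8.84% and 4.18% of all 8944 genes at this level. Over all 28, the median log2 ratio of knockout to control was 1.26, with 25 above 0 and 3 below, and that of the 8944 genes 0.12. AP-1, EGR, NR4A and IER genes and several brakes made up the 14.

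AP-1 is built from FOS and JUN subunits. *Fos* (chr12:85473890-85477273 in GRCm38, as all gene positions here) stood at 99.0 CPM (95.6 to 102) in control LSECs, whereas knockout LSECs had 267 CPM (262 to 272), which is 2.70-fold higher. For its close relative *Fosb* the levels were 59.2 and 227 CPM, 3.83-fold apart. *Jun* (chr4:95049034-95052222), the most abundant of the 28 in knockout LSECs, had 391 CPM (384 to 398) in control LSECs against 1108 CPM (1098 to 1119) in the knockout. All 3 JUN genes differed in the same direction: *Junb* had 152 and 445 CPM (2.92-fold) and *Jund*, usually the least inducible, 399 and 885 CPM (2.22-fold). The FOS-related pair lay apart. *Fosl2* had 42.0 and 66.4 CPM, a log2 ratio of 0.66, and *Fosl1* only 2 UMIs in all control and 9 in all knockout LSECs (1.89, −0.38 to 5.14).

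*Atf3* (chr1:191170296-191218039), a stress-induced relative of the AP-1 factors that often represses, had 5.22 CPM (4.47 to 6.06) in control LSECs and 35.9 CPM (34.1 to 37.8) in the knockout, 6.88-fold higher and by point value the largest ratio of all 37 members. *Egr1*, a zinc finger factor downstream of growth factor and flow signals, had 85.3 CPM (82.2 to 88.5) and 312 CPM (307 to 318), 3.66-fold higher. Its relatives *Egr2* and *Egr3* were near the limit of detection, with 8 and 23 and with 24 and 113 UMIs. The orphan nuclear receptors did not move as 1 family. *Nr4a1* had 3.47 and 17.5 CPM (5.05-fold), *Nr4a2* 9.26 and 11.1 CPM (log2 ratio 0.26, 0.05 to 0.47) and *Nr4a3* 0.573 and 0.697 CPM (0.28, −0.61 to 1.20).

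Among the small IER genes, *Ier2* had 58.2 and 178 CPM and *Ier3*, which protects cells from death signals, 21.4 and 63.8 CPM, with log2 ratios of 1.61 and 1.57, while *Ier5* had 101 and 150.5 CPM (0.58). The brakes split likewise. *Zfp36*, which marks AU-rich mRNAs for decay, had 85.9 and 220.0 CPM (1.36) and *Btg2*, an antiproliferative cofactor, 115 and 304 CPM (1.41). *Socs3*, the inhibitor of cytokine receptor signalling, had 37.1 and 89.9 CPM (1.28) and *Nfkbiz*, a nuclear cofactor of NF-κB, 32.6 and 75.8 CPM (1.22). These 4 passed 2-fold. The cytoplasmic NF-κB inhibitor *Nfkbia* (232 and 281 CPM, 0.28) and *Dusp1*, the phosphatase that switches off p38 and JNK (194 and 277 CPM, 0.51), did not.

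A few early-response genes lay close together in the 2 libraries. *Klf6* had 128 and 163 CPM (0.34). *Dusp6*, the phosphatase of ERK and itself a target of ERK, had 184 and 156 CPM (−0.24, −0.29 to −0.19), *Gadd45g*, a growth arrest gene, 55.8 and 48.1 CPM (−0.22) and *Klf10*, a target of TGF-β, 92.3 and 86.9 CPM (−0.09). These 3 were the members with a ratio below 0, and that of *Klf10* turned above 0 under 3 alternatives. *Gadd45b*, with 6.12 and 11.8 CPM (0.95, 0.71 to 1.20), was under the mean of 10 CPM and not counted.

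All 9 heat-shock genes were higher in knockout LSECs, 7 of the 9 at least 2-fold (beside the 8.84% of all genes given above), with a median log2 ratio of 1.21. *Hspb1* (chr5:135887919-135889563), the small heat-shock protein that binds unfolded proteins and guards actin, stood out. Control LSECs had 81.8 CPM (78.8 to 85.0), knockout LSECs 545 CPM (538 to 553), 6.66-fold higher, whereas the other 8 lay between 1.62-fold and 3.20-fold. The inducible Hsp70 pair had 93.6 and 299.6 CPM for *Hspa1a* and 116 and 267 CPM for *Hspa1b*, with log2 ratios of 1.68 and 1.21. The mitochondrial pair that shares 1 promoter had 162 and 491 CPM for *Hspe1* and 126 and 329.6 CPM for *Hspd1* (1.60 and 1.39). Cytosolic helpers followed: *Hsp90aa1*, the inducible Hsp90, had 322 and 742 CPM (1.20) and *Hsph1*, a nucleotide exchange factor of Hsp70, 53.0 and 116 CPM (1.13). Under 2-fold were *Hspa8*, the constitutive Hsp70 and the most abundant of the 9 (1063 and 1834 CPM, 0.79), and the Hsp40 *Dnajb1* (41.7 and 67.7 CPM, 0.70).

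**Figure D1:**
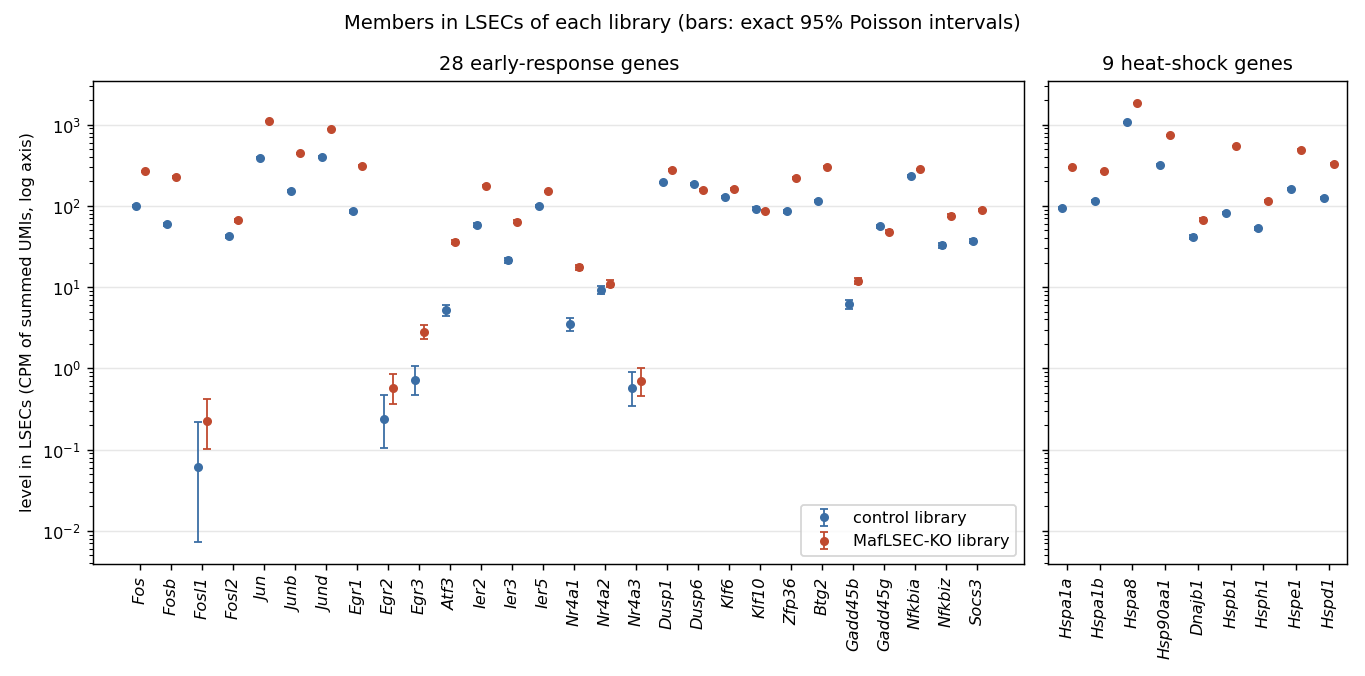
CPM of summed UMIs (log axis) of the 28 early-response and 9 heat-shock genes in control (blue) and knockout LSECs (red). Points are sums over 1 library and bars exact 95% Poisson intervals; all 9 heat-shock and 25 of 28 early-response genes are higher in the knockout.

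Other genes of these pathways were counted in the same way, to be read beside the 8.84% of all genes at least 2-fold higher and the 4.18% lower. Of 37 further early-response genes, 30 reached 10 CPM, and 9 were at least 2-fold higher and 0 lower in knockout LSECs. They were *Myc* (4.74 and 77.3 CPM, a log2 ratio of 4.03), the matricellular genes *Ccn2* (2.11) and *Ccn1* (1.76), *Sik1* (2.12), *Rgs2* (1.62), *Bhlhe40* (1.20), *Cebpd* (1.16), *Btg1* (1.15) and *Bcl3* (1.07); the median over the list was 0.59. Of 21 factors and kinases upstream of the members 19 reached 10 CPM, and 0 passed 2-fold in either direction (median −0.09). Of 30 other chaperones 28 reached 10 CPM and 5 were at least 2-fold higher, the small heat-shock protein *Cryab* (9.95 and 31.3 CPM) and 4 subunits of the cytosolic chaperonin, *Cct2* to *Cct5* (log2 ratios of 1.05 to 1.21), with a median of 0.59. Chaperones and stress genes of the endoplasmic reticulum lay on the other side of 0: of 19 genes 18 reached 10 CPM, 0 passed 2-fold, and the median was −0.24.

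The members were spread over most LSECs in both libraries. Each LSEC was thinned at random to 2700 UMIs (412 control and 187 knockout LSECs were shallower and left out). The median control LSEC then held 5 early-response UMIs (10th to 90th percentile 1 to 12) and the median knockout LSEC 9 (3 to 22), with 4 and 8 heat-shock UMIs. The 10% of LSECs with the most early-response UMIs held 30.3% of all such UMIs of the control and 29.1% of those of the knockout. A *Fos* UMI was found in 32.7% of control and 59.3% of knockout LSECs, or 15.3% and 29.1% at equal depth, and an *Hspb1* UMI in 33.8% and 83.3%, or 14.6% and 54.9%; no cell type known to lack these genes gave a background for such shares. Within a library the groups ran together only loosely: Spearman's rho between early-response and heat-shock UMIs was 0.19 over 3724 control and 0.24 over 3062 knockout LSECs, cells that share a library and a depth. Early-response UMIs had a rho of 0.23 and 0.22 with the share of the nuclear-retained RNAs *Malat1*, *Neat1* and *Kcnq1ot1*, heat-shock UMIs of −0.11 and −0.09. That share was 2.59% in control and 2.73% in knockout LSECs. Among LSECs with 2 to 4% of it, the log2 ratios of the 37 members moved by a median of 0.04. Its part in the difference between the libraries was not tested.

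**Figure D2:**
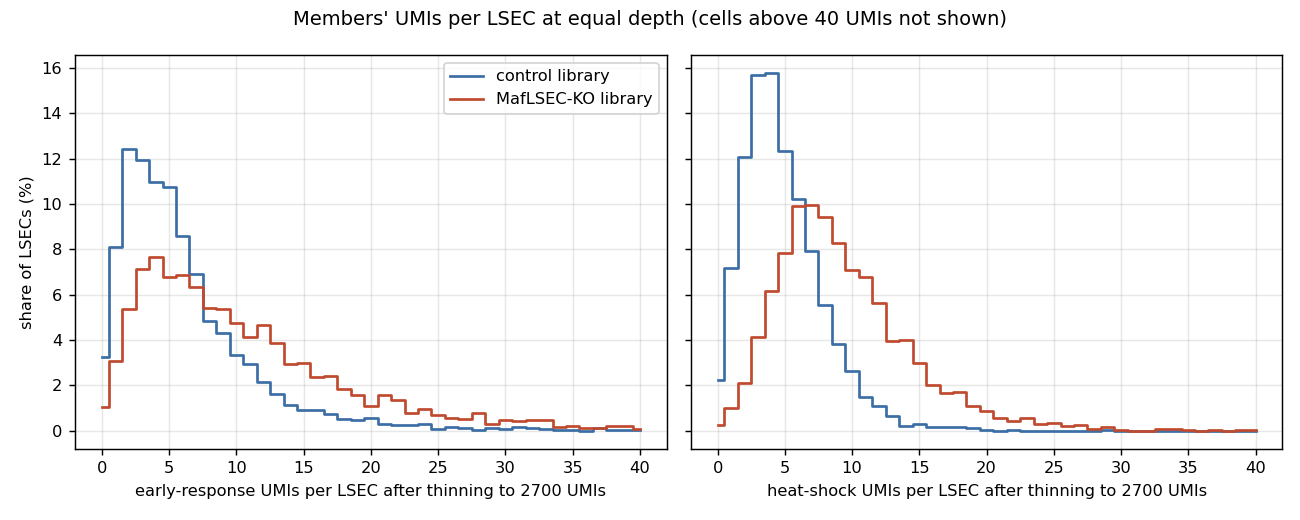
Share of LSECs (vertical axis, %) by the number of early-response (left) or heat-shock UMIs (right) per LSEC after thinning to 2700 UMIs, in the control (blue) and knockout library (red). The knockout distributions lie to the right, with medians of 9 against 5 early-response and 8 against 4 heat-shock UMIs.

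Macrophage-like cells, with 3248 and 3942 CPM of the Kupffer cell gene *Clec4f*, came from the same 2 suspensions, and their early-response genes did not follow the LSECs. In 220 control and 393 knockout cells, 18 of the 28 genes reached a mean of 50 CPM, the minimum set for these smaller sums, and 0 were at least 2-fold higher and 3 at least 2-fold lower, beside 1.65% and 4.88% of 3645 genes. The median log2 ratio was −0.66 over the 27 genes with UMIs (0.02 over all genes at this level), and 23 of them lay below 0. *Gadd45b* had 106 and 12.4 CPM (−3.09, −3.72 to −2.51), *Ier5* 174 and 72.7 CPM (−1.26, −1.55 to −0.98) and *Fos* 220.1 and 98.0 CPM (−1.17, −1.42 to −0.92). Among genes under the minimum, *Atf3* (63.4 and 28.2 CPM), *Nr4a1* (60.8 and 19.2 CPM) and *Socs3* (38.3 and 8.55 CPM) were also lower in the knockout, with intervals clear of 0. The JUN genes differed less, *Jun* at 430.2 and 354 CPM, *Junb* at 326 and 293 CPM and *Jund* at 492 and 450.0 CPM. *Egr1* lay on the other side, at 65.4 and 112 CPM (0.77, 0.43 to 1.12).

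Heat-shock genes of macrophage-like cells leaned weakly the way of the LSECs. Of 9 genes 8 reached 50 CPM, and 1 was at least 2-fold higher and 0 lower, beside 1.65% and 4.88% of 3645 genes. The median log2 ratio of the 9 was 0.16, and that of the 3645 genes 0.02. The gene at least 2-fold higher was *Hspb1*, at 31.7 and 86.8 CPM (1.45, 0.99 to 1.94). *Hsph1* had 52.2 and 89.4 CPM (0.78), *Hspd1* 143 and 216 CPM (0.59) and *Hsp90aa1* 498 and 710.0 CPM (0.51), while *Hspa1a*, at 171 and 165 CPM (−0.06, −0.29 to 0.18), was level. RNA of LSECs was present in these cells: 14 endothelial markers stood at a median of 31.7% of their LSEC level in control and 15.1% in knockout macrophage-like cells. Shares of this size of the LSEC level make 25.9 and 82.3 CPM of *Hspb1*, most of what these cells held, but 16.8 and 17.5 CPM of *Hsph1*, 39.9 and 49.7 CPM of *Hspd1* and 31.4 and 40.3 CPM of *Fos*. The markers ranged from 26.2% to 48.7% and from 11.4% to 55.3% around these medians. In the 42 and 160 cells without a UMI of *Clec4g* or *Stab2*, the median log2 ratio was −0.999 for early-response and 0.35 for heat-shock genes. For 14 early-response and 0 heat-shock genes the knockout was above the control in LSECs and below it in macrophage-like cells. Both intervals were clear of 0, a pattern that 4.76% of the 13036 genes with UMIs in both cell types of both libraries had. The reverse pattern was found for 0 members, beside 3.41% of these genes. The 13036 genes were not matched to the members in level, and an interval clears 0 more easily with more UMIs.

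**Figure D3:**
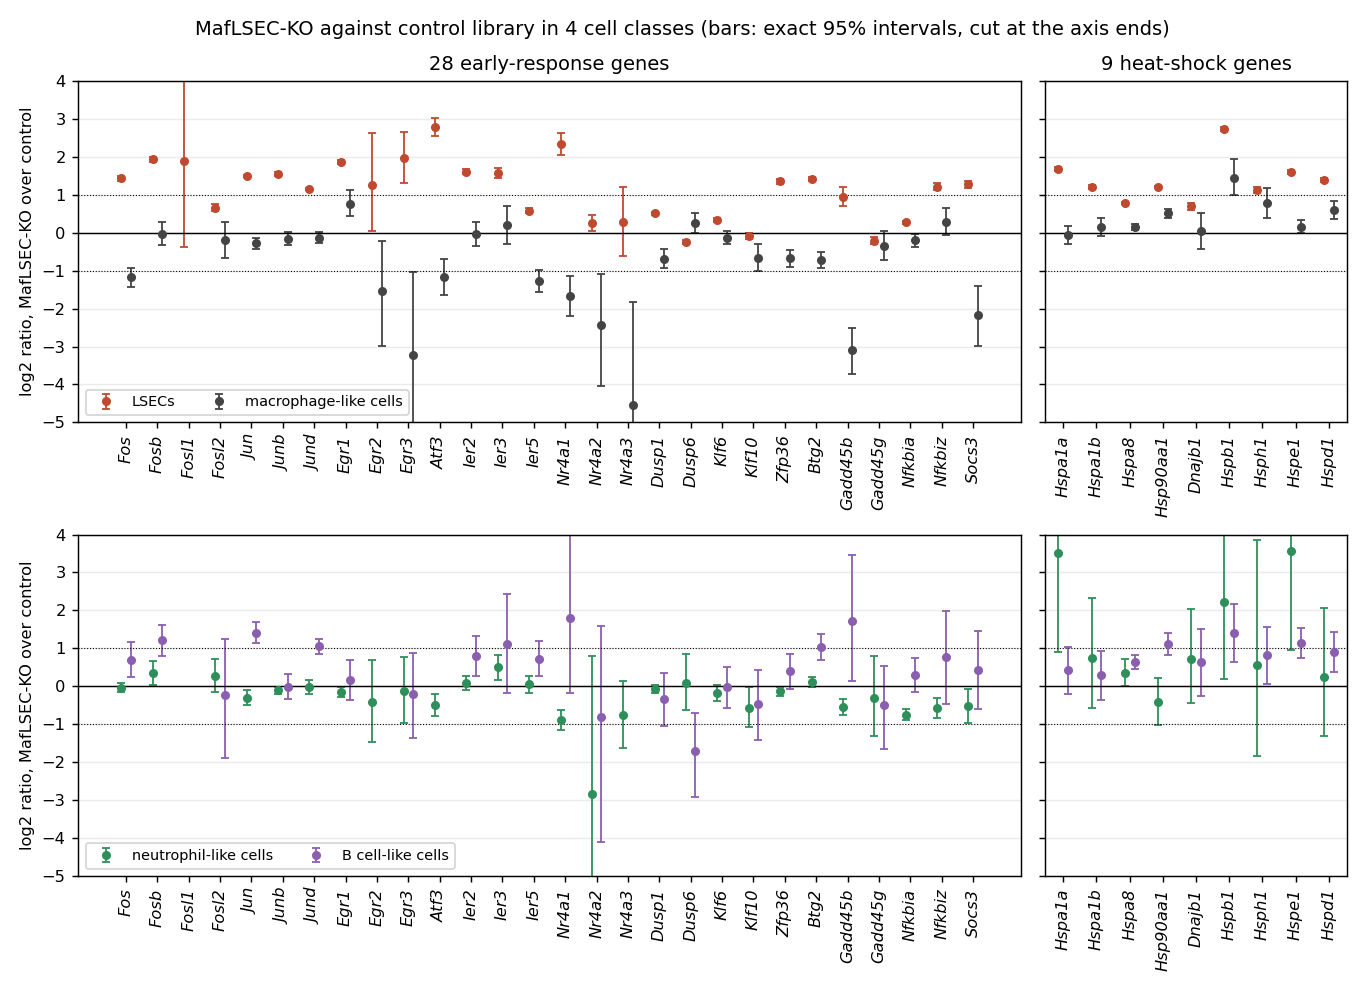
Log2 ratio of knockout to control for each member in LSECs (red) and macrophage-like cells (grey), above, and in neutrophil-like (green) and B cell-like cells (purple), below. Points are ratios of summed UMIs, bars exact 95% intervals cut at the axis ends and dotted lines 2-fold; members with too few UMIs have no point. *Fos* lies at 1.43 in LSECs and at −1.17 in macrophage-like cells.

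Neutrophil-like cells had the highest summed early-response and the lowest summed heat-shock levels of the cell types found in both libraries. In 40 control and 86 knockout cells the 28 early-response genes summed to 54843 and 49572 CPM (2591 and 5486 CPM in LSECs) and the 9 heat-shock genes to 928 and 1269 CPM (2059.7 and 4692 CPM in LSECs). The median log2 ratio of knockout to control was −0.14 over 27 early-response genes with UMIs, 20 of them below 0. For heat-shock genes it was 0.71, with 8 of 9 above 0, but only 4 of the 9 reached 50 CPM. *Junb* had 9272 and 8604 CPM, *Dusp1* 5328 and 5067 CPM, *Fos* 4948 and 4830.3 CPM (−0.03, −0.16 to 0.09) and *Egr1* 4462 and 4037 CPM. These 4 differed little between the libraries. *Nr4a1* (1415 and 762 CPM, −0.89, −1.15 to −0.64) and *Nfkbia* (3620.5 and 2160.2 CPM, −0.74, −0.90 to −0.59) were lower in the knockout. Little of this RNA lay in LSECs. By *S100a9*, LSECs held 0.00698% of the neutrophil level in the control and 0.0198% in the knockout, which carries 0.345 and 0.954 CPM of *Fos*, and by *Clec4f* the RNA of macrophage-like cells carries 0.901 and 0.564 CPM, out of the 99.0 and 267 CPM measured.

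In B cell-like cells, of 25 early-response genes with UMIs 15 lay above 0 and 10 below, with a median log2 ratio of 0.39. The median over all genes was not computed for B cell-like, neutrophil-like or all immune-like cells. In 47 control and 39 knockout cells, *Jun* had 467 and 1246 CPM (1.42, 1.14 to 1.69), *Fosb* 233 and 540.3 CPM (1.21), *Jund* 974 and 2024 CPM (1.05) and *Btg2* 357 and 729.9 CPM (1.03), whereas *Junb* (576 and 573 CPM) and *Egr1* (202 and 227 CPM) were level and *Dusp6* was lower (141 and 42.7 CPM, −1.72, −2.92 to −0.70). All 9 heat-shock genes lay above 0, from 0.29 for *Hspa1b* to 1.39 for *Hspb1*. Endothelial markers stood at 68.7% of their LSEC level in control and 22.8% in knockout B cell-like cells, and the part of that RNA in these values was not tested. T/NK cell-like (60) and dendritic-like cells (70) were named as classes in the knockout library alone (the control barcodes of cluster 9 were not set apart when that library was clustered), with early-response sums of 6389.7 and 9758 CPM. Over all immune-like cells (307 and 648) the median log2 ratio was 0.12 for early-response genes, a value that changed sign under 4 alternatives, and 0.43 for heat-shock genes.

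Within each library the order of macrophage-like cells and LSECs differed. In the control, 7 of 18 early-response genes at 50 CPM or more were at least 2-fold higher in macrophage-like cells than in LSECs and 0 lower (11.0% and 17.8% of 3913 genes), namely *Fos*, *Junb*, *Klf6*, *Zfp36*, *Btg2*, *Gadd45b* and *Nfkbiz*. In the knockout 0 of 19 were higher and 8 at least 2-fold lower (13.7% and 22.0% of 4072 genes), namely *Fos*, *Fosb*, *Jun*, *Egr1*, *Ier2*, *Ier5*, *Dusp1* and *Btg2*. *Fos* and *Btg2* are in both lists, on opposite sides. Of the heat-shock genes, *Hspb1* was lower in macrophage-like cells in the control (−1.37) and in the knockout (−2.65), and no other passed 2-fold.

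LSECs of both libraries, merged and clustered without the members, fell into 9 clusters that were each mostly of 1 library, cluster 9 being the 21 control barcodes led by *Gzma*. Among the 3 large knockout clusters, cluster 3 (1054 knockout LSECs, led by *Astn1* and *Kcne3*) had the highest summed early-response level, 7059 CPM. The sum was 5058 CPM in cluster 2 (1349 knockout LSECs, led by *Spp1* and *Ly6c1*). It was 4803 CPM in the cycling cluster 7 (554, led by histone genes and *Mki67*). In clusters 3, 2 and 7, *Egr1* had 494, 237 and 260.3 CPM and *Fos* 403, 222 and 223 CPM. Nuclear-retained RNA was 3.65% in cluster 3, 2.46% in cluster 2 and 2.06% in cluster 7, and its part in these levels was not tested. The heat-shock genes did not share 1 order. *Hspb1* was highest in cluster 2 (693, 440.4 and 475 CPM in clusters 2, 3 and 7). The inducible Hsp70 pair, *Dnajb1* and *Hsph1* were highest in cluster 3 (*Hspa1a* at 223, 433 and 283 CPM). In cycling LSECs *Hsp90aa1*, *Hspe1* and *Hspd1* were highest (*Hsp90aa1* at 489, 809.5 and 1093 CPM). *Hspa8* was about level in clusters 3 and 7 (2084 and 2068 CPM, with overlapping intervals) and lower in cluster 2 (1545 CPM). The cycling cluster also held 63 control LSECs, with *Jun* at 437 CPM (knockout 1039 CPM) and *Hspa1a* at 58.5 CPM (knockout 283 CPM).

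Among control LSECs of clusters 1, 4, 5 and 6, the early-response genes summed highest in cluster 5 (3653 CPM) and lowest in cluster 6 (1506 CPM). Their sums were 2387 CPM in cluster 1 and 2556 CPM in cluster 4. In clusters 5, 1, 4 and 6, in this order, *Fos* had 191, 89.2, 73.2 and 19.0 CPM and *Fosb* 141, 43.9, 50.4 and 1.90 CPM. Nuclear-retained RNA had the order of *Fos*, at 5.34%, 2.44%, 2.22% and 0.373% of UMIs. Clusters 5 and 6, both led by hemoglobin genes, were also the shallow ones, with medians of 4774 and 3398 UMIs against 11009 and 10186 in clusters 1 and 4, and mitochondrial UMIs were 7.40% in cluster 5 and 3.86% to 5.16% in the others. The part of these differences was not tested. *Hspa8* had another order, lowest in cluster 5 (842 CPM) and highest in cluster 6 (1423 CPM). With clusters 5 and 6 left out, the knockout-to-control log2 ratios of the 37 members in LSECs moved by a median of 0.03.

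**Figure D4:**
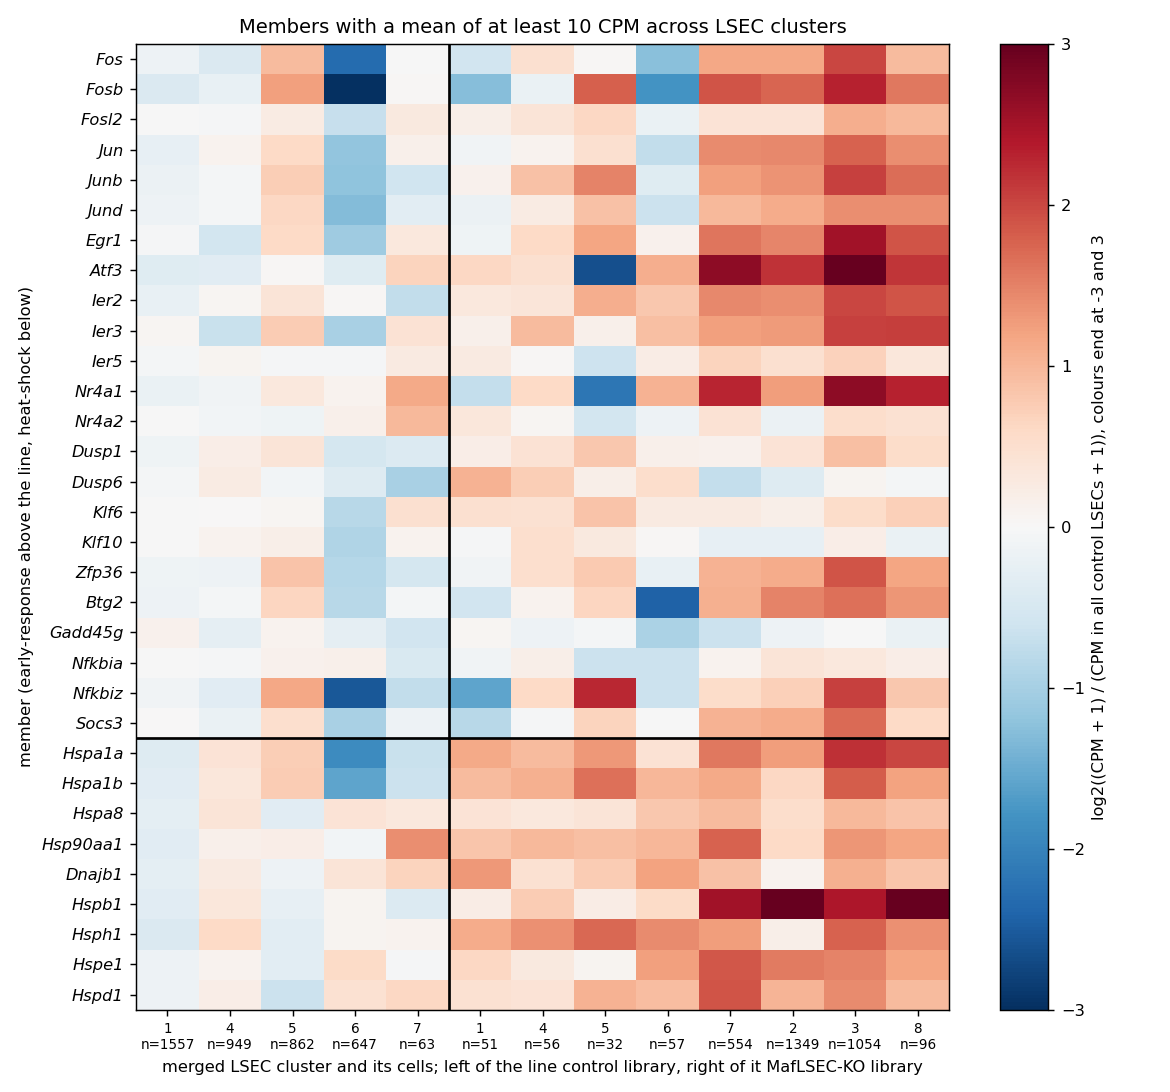
Level of each member with a mean of at least 10 CPM in the merged LSEC clusters, as a log2 ratio to all control LSECs (red higher, blue lower), with the number of LSECs of each column. Cluster 3 of the knockout is the reddest column for the early-response genes and cluster 6 of the control the bluest, while the heat-shock genes of the knockout are higher than in all control LSECs in nearly every cluster.

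Some knockout LSECs lay among the control LSECs. Clusters 1, 4, 5 and 6 held 196 knockout LSECs that still had *Maf* RNA at 2472 CPM, compared with 3531 CPM in the 4015 control LSECs of these clusters and 32.3 CPM in the 3053 other knockout LSECs; they had been through the knockout suspension with the rest. The summed levels of *Fos*, *Jun* and *Fosb* in these 196 lay near the control. *Fos* had 90.7 CPM in these 196, 92.5 CPM in the control LSECs and 274 CPM in the other knockout LSECs, *Jun* 381, 378 and 1137 CPM, and *Fosb* 52.6, 54.9 and 234 CPM. Of 16 early-response genes at 50 CPM or more, 0 were at least 2-fold higher and 0 lower than in the control LSECs of the same clusters. The shares over 3946 genes were 0.558% and 0.279%, so that these counts of 0 do not set the members apart from other genes. Over the 26 genes with UMIs the median log2 ratio was 0.29, with 20 above 0 and 6 below, beside 0.05 over the 3946 genes. Within single clusters *Fos* lay on both sides of the control. Its knockout and control levels were 66.4 and 89.2 CPM in cluster 1 and 101 and 191 CPM in cluster 5. In clusters 4 and 6 they were 138 and 73.2 CPM and 40.8 and 19.0 CPM. *Dusp6* (318 against 186 CPM), *Junb* (227 against 148 CPM) and *Egr1* (112 against 78.6 CPM) were higher by less than 2-fold.

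Their heat-shock genes did not lie at the control level. All 9 were above it, 4 of the 9 at least 2-fold, beside 0.558% of 3946 genes. Their median log2 ratio was 0.99, and that of the 3946 genes 0.05. *Hsph1* had 135 CPM in the 196 LSECs, 52.6 CPM in the control and 115 CPM in the other knockout LSECs, *Hspa1b* 248, 117 and 268 CPM, *Hsp90aa1* 606, 302 and 747 CPM and *Dnajb1* 83.5, 40.7 and 67.1 CPM. In these 4 the values lay closer to the rest of their library than to the control, but they are also the 4 counted as at least 2-fold above it. *Hspa1a*, *Hspa8* and *Hspd1* lay between the control and the other knockout LSECs. *Hspb1* (115, 77.9 and 562 CPM) and *Hspe1* (244, 158 and 501 CPM) lay closer to the control.

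Set against these 196, the other knockout LSECs had 9 of 18 early-response genes at least 2-fold higher and 1, *Dusp6* (−1.09), at least 2-fold lower (5.69% and 5.35% of 4092 genes), and 2 of 9 heat-shock genes at least 2-fold higher, *Hspb1* (2.29) and *Hspe1* (1.04). The single clusters were less even. Their medians were taken over members at 50 CPM or more. These were 15, 15, 19 and 12 of the 28 early-response genes in clusters 1, 4, 5 and 6, and all 9 heat-shock genes. In cluster 1 (51 knockout and 1557 control LSECs) the median log2 ratio of knockout to control was 0.03 for early-response and 1.17 for heat-shock genes, and in cluster 5 (32 and 862) 0.26 and 0.73. In cluster 4 (56 and 949) the medians were 0.31 and 0.43, and *Egr1* (131 against 58.2 CPM) and *Fos* (138 against 73.2 CPM) were higher in its knockout LSECs. In cluster 6 (57 and 647) both groups were higher (0.73 and 0.84), so that the contrast between the groups was clearest in cluster 1. Cluster 6, low in early-response RNA, made up 57 of the 196 knockout but 647 of the 4015 control LSECs. Chosen by *Maf* RNA, 213 knockout LSECs with at least 5 *Maf* UMIs had median log2 ratios of 0.63 and 1.04 to all control LSECs. These medians cover 27 early-response genes with UMIs and the 9 heat-shock genes, without a minimum level. The contrast was smaller than for the 196 LSECs (0.29 over 26 genes and 0.99), which were set against control LSECs of their own clusters. These subsets were set up after the data were seen, and clusters 1, 4, 5 and 6 were themselves drawn from the expression of other genes, *Maf* among them.

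**Figure D5:**
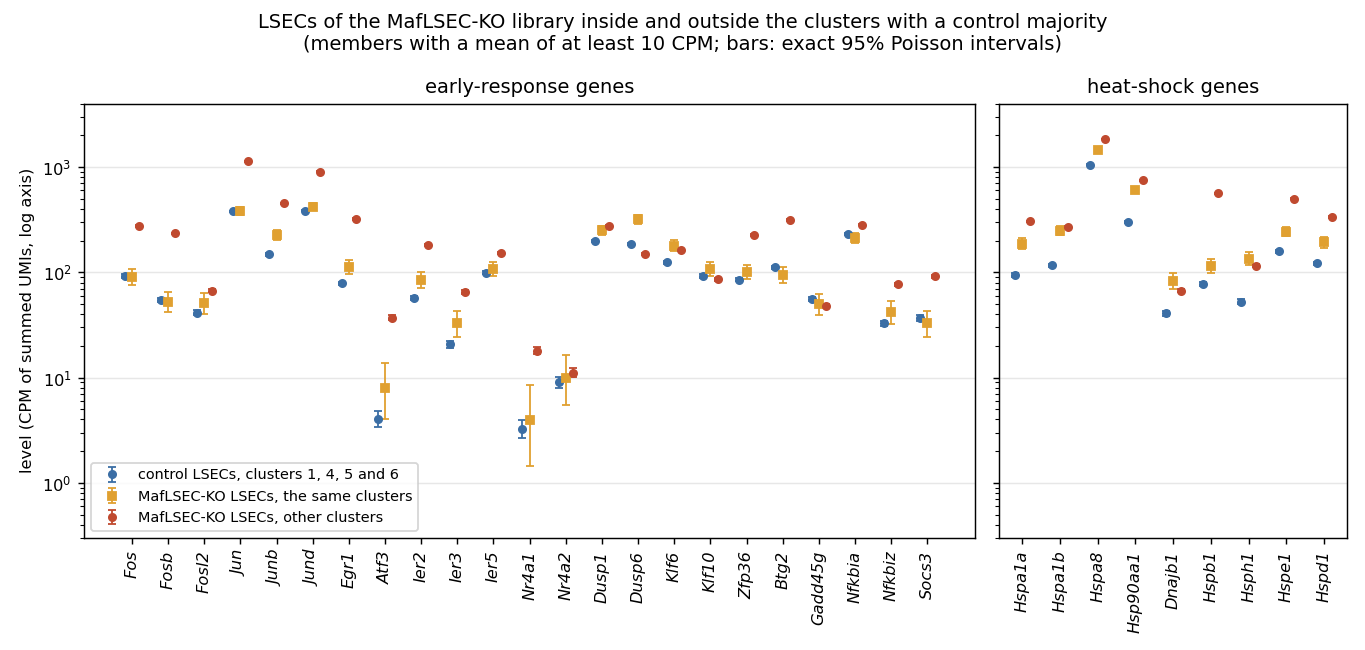
CPM of summed UMIs (log axis) of members with a mean of at least 10 CPM in control LSECs of clusters 1, 4, 5 and 6 (blue), the 196 knockout LSECs of these clusters (yellow squares) and the other knockout LSECs (red), with exact 95% Poisson intervals. For *Fos*, *Fosb* and *Jun* the squares lie at the blue points, and for *Hspa1b*, *Hsp90aa1*, *Dnajb1* and *Hsph1* nearer to the red points.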

How the data were processed

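Cells of 1 control and 1 *Maf*LSEC-KO library were compared. The authors deposited raw UMI counts per gene and barcode, made with Cell Ranger 6.0.2 against mm10 from 10x 3′ libraries, with at least 500 UMIs per barcode; these values precede the subtraction of empty-droplet means described in the study, a step left out here. The study's own clustering used Seurat 5.0.1. Only barcodes reaching 1500 UMIs and 750 detected genes entered the re-analysis. Each library was clustered with Seurat 5.3.0 (log-normalized counts, R 4.3.3) on 16 (control) or 20 principal components at a resolution of 0.3. The components came from 2000 variable genes, with the 37 members, mitochondrial and ribosomal protein genes left out. Clusters were named from fixed markers. Merged LSECs were clustered after SCTransform (sctransform 0.4.2) on 22 components of 3000 variable genes. Scrublet (scanpy 1.11.5) set no usable limit and marked no cell, so that the top-scoring 225 control and 308 *Maf*LSEC-KO cells, the number the usual loading rate gives, were dropped. Endothelial-like cells with a UMI of *Vwf*, a gene of large vessels, were left out (160 of 4296 and 1181 of 4430).

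UMIs were summed per library and cell type and divided by the sum over all genes except mitochondrial and ribosomal protein genes. Levels carry exact Poisson intervals and ratios exact conditional binomial intervals (scipy 1.17.1), both at 95% and for counting error only; a count of 0 allows up to 3 counts. Folds of at least 2 were counted among genes with a mean of 10 CPM in LSECs and 50 CPM elsewhere. With 1 library per condition no p-value was computed. The scripts were tested on simulated data.

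Members past 2-fold in LSECs, the highest of each group and those with opposite directions in LSECs and macrophage-like cells are given in full, the others in ranges and counts. The members and the 4 lists of other genes were chosen with earlier results of these data known. *Ddit3*, with 2 gene identifiers, was left out of the last list. Promoter sequences are from RefSeq (GRCm38.p6), gene positions and transcripts from GENCODE. Alternatives covered the scaling (edgeR 4.0.16 for TMM factors), the weight and depth of cells, doublets, and the filters.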

Additional observations from a re-analysis of the deposited data

Results flagged for a closer look

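For 14 of the 37 members, all of them early-response genes, the knockout LSECs were above and the knockout macrophage-like cells below the control, with both intervals clear of 0, beside 4.76% of all 13036 genes with UMIs in both cell types of both libraries (36 of the members). Each library gives 1 value per cell type, so this difference was not tested. The share over all genes was not matched to the members in level, on which the width of the intervals depends. On the log2 scale the ratio in LSECs exceeded that in macrophage-like cells by 2.60 for *Fos* and 1.78 for *Jun* among the AP-1 genes, by 2.78 for *Egr2*, 5.17 for *Egr3* and 3.95 for *Atf3*, and by 3.997 for *Nr4a1* and 2.69 for *Nr4a2*. For *Egr2*, *Egr3* and *Nr4a2* these values rest on few UMIs. The gap was 1.84 for *Ier5*, 1.19 for *Dusp1*, 2.03 for *Zfp36*, 2.12 for *Btg2*, 4.04 for *Gadd45b*, 0.48 for *Nfkbia* and 3.44 for *Socs3*. In macrophage-like cells without a UMI of *Clec4g* or *Stab2* the log2 ratio was −1.67 for *Fos*, −1.19 for *Jun* and −1.75 for *Btg2*, below the values in all macrophage-like cells.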

How the results depend on the processing

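Across 13 planned and 4 added alternatives, the latter chosen after seeing the data, 12 to 17 early-response and 6 to 7 heat-shock genes were at least 2-fold higher in knockout LSECs (14 and 7 as reported) and none at least 2-fold lower. The median log2 ratio of early-response genes in LSECs became 1.07 with CPM over all genes and 1.07 with thinned cells. That of heat-shock genes became 1.02 with CPM over all genes, 1.10 with TMM factors, 1.09 with median-of-ratios factors, 1.27 with *Vwf* cells kept and 1.28 without clusters 5 and 6. The scalings shift all ratios alike, by −0.19, −0.11 and −0.11, and 34 of 37 members lay above 0 under each. Signs turned for *Nr4a2* (−0.039, mean of per-cell CPM), *Egr2* (−1.55, thinned cells, few UMIs) and *Klf10* (0.035 with *Vwf* cells kept, 0.016 without cycling LSECs, 0.0019 without LSECs holding UMIs of 2 immune or stellate markers); the causes were not tested. *Nr4a3*, whose interval spans 0, had −0.41 among LSECs with 2 to 4% of nuclear-retained RNA. In macrophage-like cells the heat-shock median was 0.54 with doublets kept and the early-response median (−0.66 as reported) ran from −0.999 without cells holding *Clec4g* or *Stab2* UMIs to −0.24 with doublets kept. Over all immune-like cells the early-response median was −0.14 with per-cell CPM, −0.077 with thinned cells, −0.036 with doublets kept and −0.28 without *Clec4g* or *Stab2* UMIs, for causes not tested. No paired analysis was possible because each condition has 1 library, and no replicate could be left out. Depth limits *Fosl1*, *Egr2* and *Nr4a3* in LSECs, the 5 heat-shock genes under 50 CPM in neutrophil-like cells and the 10 early-response genes under it in B cell-like cells.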
